A study of Homo sapiens with 40 samples.

Results

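Cyclins are the regulatory subunits of the cyclin-dependent kinases (CDKs), and 10 genes of this family are described here: the D-type cyclins CCND1, CCND2 and CCND3, the E-type cyclins CCNE1 and CCNE2, the A- and B-type cyclins CCNA2, CCNB1 and CCNB2, and the kinases CDK1 and CDK2. They were chosen by name, 10 of the 60708 genes counted in each RNA-seq library. The study used breast epithelial and breast cancer cell lines to follow the response to TGFβ with and without oncogenic HRAS, and the roles of SLUG (the protein of SNAI2) and of the SMAD proteins. RNA was sequenced from 24 libraries in 8 groups of 3.

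MI denotes MCF-10A, an immortalized non-tumorigenic breast epithelial line, and MII denotes its HRAS-transformed derivative MCF-10AneoT. Both were grown as spheres in ultra-low attachment plates and were left untreated (MI Ctrl, MII Ctrl) or received TGFβ1 at 2.5 ng/ml for 16 h (MI TGFb, MII TGFb). MDA-MB-231 is a triple-negative breast cancer line, grown here as a monolayer with serum. It was sequenced untreated (WT), after CRISPR/Cas9 editing of SNAI2 with a guide to exon 1 and expansion of single-cell colonies (SLUG KO), after transfection of a control scramble siRNA (Csi) and after siRNAs to SMAD2, SMAD3 and SMAD4 together (siSMAD2/3/4). None of the MDA-MB-231 groups was labelled as given TGFβ. Edited colonies carry whatever set their founder cells apart, and WT cells did not pass through that selection. The labels did not say whether the libraries of a group came from separate cultures, so the p-values measure only the spread between these libraries, which may be technical.

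D-type cyclins rise with growth signals, join CDK4 and CDK6 and begin the phosphorylation of the retinoblastoma protein that releases E2F factors. E2F then drives CCNE1, CCNE2 and CCNA2, whose products activate CDK2 for entry into and passage through S phase. Cyclin A and the B-type cyclins activate CDK1 for mitosis, and their transcripts accumulate in G2 through the CHR element read by the DREAM and MuvB complexes. In untransformed epithelium TGFβ is known as a brake on G1, and RAS signalling is known to raise CCND1. In bulk RNA, fewer cycling cells and less RNA per cycling cell cannot be told apart.

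Library totals ranged from 14124688 to 38406952 assigned fragments. Levels are given as CPM, the gene's count scaled to the library total after TMM normalization, and per kilobase of gene length wherever different genes are compared. HRAS stood at 40.8 ± 1.01 CPM in MI Ctrl and 220.4 ± 4.10 CPM in MII Ctrl (SD, n = 3). The siRNAs were followed by log2 fold changes of -1.92 for SMAD2, -0.69 for SMAD3 and -1.72 for SMAD4. SNAI2 went against the label: it was at 63.6, 57.8 and 64.3 CPM in the libraries labelled SLUG KO and at 30.2, 20.9 and 33.7 CPM in WT (log2 fold change 1.10, adjusted p = 0.0443, edgeR quasi-likelihood test with Benjamini-Hochberg adjustment). A transcript level does not check a small edit in exon 1, and these are called the libraries labelled SLUG KO throughout. WT replicate 2 stood apart from the other WT libraries (Pearson r of log2 CPM 0.957 and 0.952, against 0.989 between replicates 1 and 3). The 7 epithelial markers (basal genes with the general epithelial genes CDH1 and EPCAM) summed to between 1230 and 4309 CPM in the sphere libraries. In MDA-MB-231 the sum was at most 43.6 CPM. The highest of them in MII Ctrl was CDH1, at 555 to 588 CPM. Against MI Ctrl, 3 of the 7 were higher and 4 lower in MII Ctrl. TP63, a defining basal factor, was at 48.8 to 53.4 CPM in MI Ctrl but at 0.469 to 0.728 CPM in MII Ctrl. KRT14 went the other way, from 1.51 to 1.59 CPM in MI Ctrl to 7.57 to 9.14 CPM in MII Ctrl. So did EPCAM, from 59.1 to 66.6 CPM to 180 to 196 CPM. Of 5 markers of blood, endothelial and liver cells, PECAM1 made up nearly all of the sum, which was 8.99 to 11.8 CPM in MI-spheres and 89.5 to 106.2 CPM in MII-spheres.

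Upstream sequence is shown for the cell cycle members whose transcripts moved most with TGFβ in MII-spheres, because CCAAT, an element common before cell cycle genes, recurs in 4 of them; CCND3, which is not shown, also held 1 CCAAT in 2 of its 3 windows. RefSeq start windows (250 bases before and 50 after each start) were at hand for 6 of the 10 genes; CCND1, CCND2, CCNE2 and CDK2 had none. Each line gives bases upstream of the gene's first annotated exon, 5′ to 3′ on the strand of the gene, from the GRCh38.p14 assembly: CCNA2 from chr4:121823884-121824133 (minus strand), CCNB1 from chr5:69166900-69167134, CCNB2 from chr15:59104896-59105125, CDK1 from chr10:60778081-60778330 and CCNE1 from chr19:29811741-29811990 (plus strand). The CCNB1 and CCNB2 lines hold 235 and 230 bases and end short of the RefSeq starts at 69167150 and 59105146, from which positions are counted. Capitals mark every match, on either strand, to CCAAT, to the CHR letters TTTGAA or TTTAAA, to the CRE TGACGTCA or to the SMAD letters CAGAC.
CCNA2: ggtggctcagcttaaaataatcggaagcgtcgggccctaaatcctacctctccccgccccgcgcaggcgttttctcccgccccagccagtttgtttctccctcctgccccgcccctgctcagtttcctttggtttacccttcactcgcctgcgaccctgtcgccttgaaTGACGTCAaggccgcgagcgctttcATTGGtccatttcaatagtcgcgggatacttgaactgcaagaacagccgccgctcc
CCNB1: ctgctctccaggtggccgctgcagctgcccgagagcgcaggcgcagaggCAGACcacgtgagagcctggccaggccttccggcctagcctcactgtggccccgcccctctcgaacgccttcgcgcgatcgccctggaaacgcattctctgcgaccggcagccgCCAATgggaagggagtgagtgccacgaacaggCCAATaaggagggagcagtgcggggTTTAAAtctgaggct
CCNB2: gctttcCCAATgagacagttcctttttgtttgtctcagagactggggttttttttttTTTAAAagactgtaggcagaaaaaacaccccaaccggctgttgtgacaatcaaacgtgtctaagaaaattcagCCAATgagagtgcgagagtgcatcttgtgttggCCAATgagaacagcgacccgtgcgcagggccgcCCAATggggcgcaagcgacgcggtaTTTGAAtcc
CDK1: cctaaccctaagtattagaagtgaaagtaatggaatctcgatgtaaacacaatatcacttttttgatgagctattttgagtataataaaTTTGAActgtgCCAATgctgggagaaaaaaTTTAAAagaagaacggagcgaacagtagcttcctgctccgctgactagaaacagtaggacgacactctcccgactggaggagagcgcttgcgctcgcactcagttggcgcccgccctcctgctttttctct
CCNE1: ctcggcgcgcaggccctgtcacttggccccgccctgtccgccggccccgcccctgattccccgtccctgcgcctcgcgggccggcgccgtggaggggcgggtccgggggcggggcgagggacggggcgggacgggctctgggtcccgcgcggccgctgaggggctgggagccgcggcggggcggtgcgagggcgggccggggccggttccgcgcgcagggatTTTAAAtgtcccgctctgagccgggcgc

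CCAAT was present in 34.6% of the 35116 RefSeq windows, the CHR letters in 23.99%, CAGAC in 45.3% and TGACGTCA in 1.85%. CCNB2 held 4 CCAAT matches, at -244, -120, -87 and -54 from its start, and CCNB1 held 2, at -87 and -55. In both B-type cyclins a CHR match lay close to the start, at -29 in CCNB2 and -30 in CCNB1. CCNA2 held 1 CCAAT (read on the opposite strand, at -56) and the CRE at -81, and CCNE1 held a lone CHR match at -28. The longer E2F letters TTTCCCGC, TTTGGCGC, TTTCGCGC and TTTGCCGC, found in 3.31% of windows, occurred among these genes at a single place in CDK1, at 19 from the RefSeq start used here and at -128 from a second RefSeq start at 60778478, and the AP-1 letters TGACTCA (4.95% of windows) in none of the 9 member windows. From the start used here CDK1 held CCAAT at -150 and CHR letters at -161 and -131. From its second start it held CCAAT at -78 and -46 (opposite strand) and CHR letters at -69, -13 and 9. A CHR match close to a start was thus not limited to the B-type cyclins. All of these are matches of letters and not mapped binding sites.

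Among the D-type cyclins, CCND1 (chromosome 11, 69641156 to 69654474) had the highest level in every group, in CPM and per kilobase. In siSMAD2/3/4 it was at 625 CPM against 265 CPM for CCND3. Gene length here is all annotated exonic bases, 4761 for CCND1, 5761 for CCND3 and 7988 for CCND2. The transcripts present may be shorter, so the shares per kilobase depend on this measure. Per kilobase it ranged from 35.2 CPM per kb in MII Ctrl and 58.9 in MI Ctrl to 171 in Csi, and it made up 74.0% to 91.4% of the D-type total in the group means. CCND3 (chromosome 6, 41934934 to 42050357) lay between 4.77 CPM per kb in MII Ctrl and 46.0 in siSMAD2/3/4. CCND2 (chromosome 12, 4269771 to 4305353) had 0 counts in 10 of the 12 sphere libraries and 4 counts over all of them, so in each sphere library 3 counts, or 0.100 to 0.204 CPM, bound what could be seen. In MDA-MB-231 CCND2 was low but present, at 1.21 ± 0.384 CPM in the libraries labelled SLUG KO and 2.78 ± 0.352 CPM in WT.

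**Figure D1:**
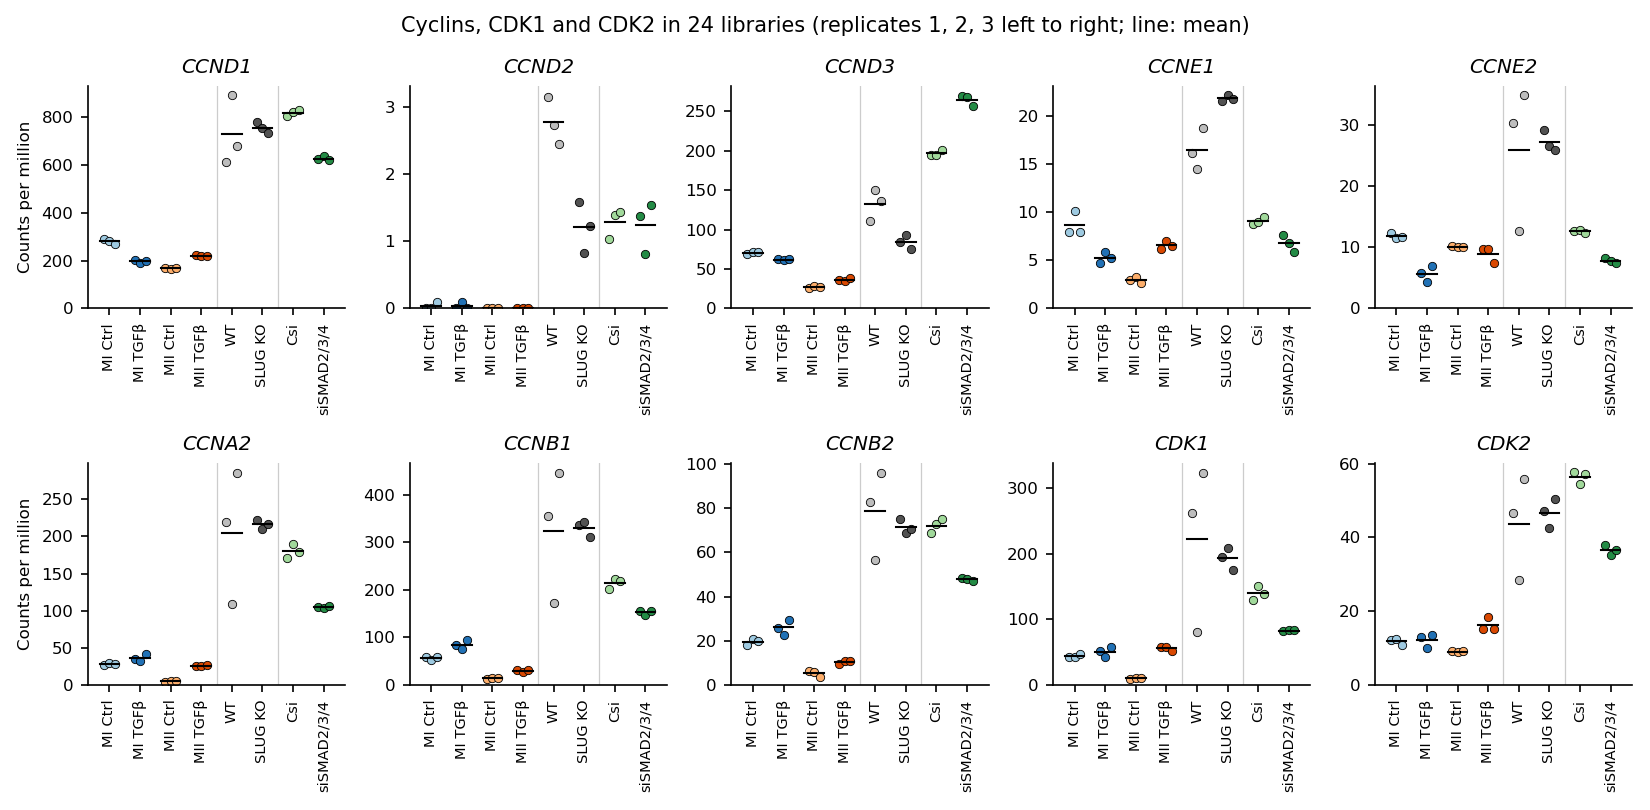
Level of the 10 genes in the 24 libraries, in CPM after TMM. Points are libraries and bars the mean of the 3 libraries of a group. MII Ctrl is the lowest sphere group for all genes but CCND2 and CCNE2, and the MDA-MB-231 groups are the highest for the A- and B-type cyclins and both kinases.

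The genes of S phase and mitosis shared the separation of the lines and their lowest group, but not the order of the groups between. For CCNA2, CCNB1, CCNB2, CDK1 and CDK2 the 4 MDA-MB-231 groups were above the 4 sphere groups, and MII Ctrl was the lowest group, with no library reaching the next group. CCNA2 (chromosome 4, 121816444 to 121823883) ran from 5.12 ± 0.480 CPM in MII Ctrl through 26.2 ± 0.638 in MII TGFb, 28.0 ± 1.38 in MI Ctrl and 36.4 ± 5.16 in MI TGFb to 216 ± 6.03 in the libraries labelled SLUG KO. MII TGFb and MI Ctrl overlapped in that order, as did WT with its neighbours. The E-type cyclins were ordered differently. CCNE2 (chromosome 8, 94879770 to 94896678) was lowest in MI TGFb, at 5.64 ± 1.32 CPM, and siSMAD2/3/4 lay among the sphere groups for CCNE1 (chromosome 19, 29811991 to 29824312) and CCNE2. Csi had a higher mean than every sphere group for both genes but overlapped MI Ctrl. The siRNA libraries came from another sequencing batch and the lines differed in culture form, so these levels are side by side only and were not tested across lines.

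In MI-spheres, TGFβ stimulation was followed by lower G1 cyclins and slightly higher mitotic cyclins. Of 9 members tested, 4 fell (CCND1, CCND3, CCNE1, CCNE2) and 3 rose (CCNA2, CCNB1, CCNB2), while 27.4% of the 16863 genes tested fell and 28.7% rose. The count of members that rose was near the share of all genes. The median log2 fold change was also similar, at -0.05 over the members and -0.02 over all genes. CDK1 and CDK2 did not pass the test.

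CCNE2, an E-type partner of CDK2, had the largest change of the members in MI-spheres. It stood at 12.4, 11.6 and 11.7 CPM in the untreated libraries and at 5.76, 4.26 and 6.90 CPM after TGFβ. Every stimulated library lay below every untreated one (log2 fold change -1.16, SE 0.13, adjusted p = 1.24e-07, edgeR quasi-likelihood test). CCNE1 went from 7.95, 10.2 and 7.95 CPM to 4.72, 5.92 and 5.24 CPM, again without overlap (-0.79, SE 0.14, adjusted p = 4.74e-05). CCND1, the D-type cyclin of most epithelia, stood at 291, 279 and 271 CPM before and 201, 189 and 198 CPM after stimulation. Its groups did not overlap (-0.60, SE 0.05, adjusted p = 6.33e-10), and CCND3 moved the same way by less, from 70.9 ± 1.85 to 62.0 ± 0.818 CPM (-0.28, adjusted p = 0.000250).

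CCNB1 (chromosome 5, 69167135 to 69178245), the main cyclin partner of CDK1 at mitotic entry, rose from 59.1, 52.0 and 59.7 CPM to 84.7, 74.7 and 95.2 CPM in MI-spheres (0.49, SE 0.07, adjusted p = 3.17e-06). CCNB2 (chromosome 15, 59105126 to 59125045) and CCNA2 rose by 0.33 and 0.30 on the log2 scale (adjusted p = 0.00332 and 0.00372). CDK1 (chromosome 10, 60778331 to 60794852) overlapped between the groups, with 42.3, 42.7 and 47.4 CPM before and 51.7, 42.0 and 58.4 CPM after (0.12, 95% interval -0.06 to 0.30, adjusted p = 0.236). Without MI TGFb replicate 2, the lowest stimulated library for CDK1, its value was 0.24 and passed the test (adjusted p = 0.00546). CDK2 (chromosome 12, 55966781 to 55972789) had an interval of -0.28 to 0.18.

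In MII-spheres the same stimulation was followed by higher levels of nearly all members. Of 9 tested, 8 rose and 0 fell, against 30.0% of 16396 genes that rose and 27.7% that fell, and the median was 0.95 over the members against -0.02 over all genes. CCNE2 alone missed the test. The largest changes were in CDK1 and CCNA2, the kinase of mitosis and the cyclin of S and G2 phase, at 5.23-fold and 4.93-fold.

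CCNA2 stood at 4.57, 5.46 and 5.33 CPM in MII Ctrl and at 26.1, 25.7 and 26.9 CPM after TGFβ. The stimulated libraries lay close together and far above the untreated ones (log2 fold change 2.30, SE 0.11, adjusted p = 4.78e-31, edgeR). CDK1 moved from 9.87, 10.3 and 10.9 CPM to 57.8, 57.5 and 51.7 CPM (2.39, SE 0.08, adjusted p = 1.31e-40). CCNB1 and CCNB2, which share CDK1 as their kinase with cyclin A, changed less than CDK1 did: CCNB2 went from 6.42, 5.76 and 3.67 CPM to 9.68, 11.1 and 10.7 CPM (0.95, SE 0.14, adjusted p = 2.16e-08), and CCNB1 rose by 1.06 (SE 0.08). CDK2 went from 9.14, 8.87 and 9.11 CPM to 15.2, 18.3 and 15.3 CPM (0.82, SE 0.11, adjusted p = 7.13e-10).

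The E-type cyclins separated in MII-spheres. CCNE1 rose from 2.98, 3.25 and 2.67 CPM to 6.16, 7.002 and 6.53 CPM (1.09, SE 0.17, adjusted p = 6.99e-08). CCNE2 stood at 10.3, 10.1 and 10.0 CPM before and 9.81, 9.67 and 7.41 CPM after stimulation. All stimulated CCNE2 libraries lay below the untreated ones, but the difference did not pass the test (-0.21, 95% interval -0.45 to 0.03, adjusted p = 0.129). Of the D-type cyclins, CCND3 rose from 26.6, 29.0 and 26.8 CPM to 35.8, 34.3 and 38.7 CPM (0.36, SE 0.07, adjusted p = 9.57e-06), and CCND1 rose by the same 0.36 (SE 0.04).

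**Figure D2:**
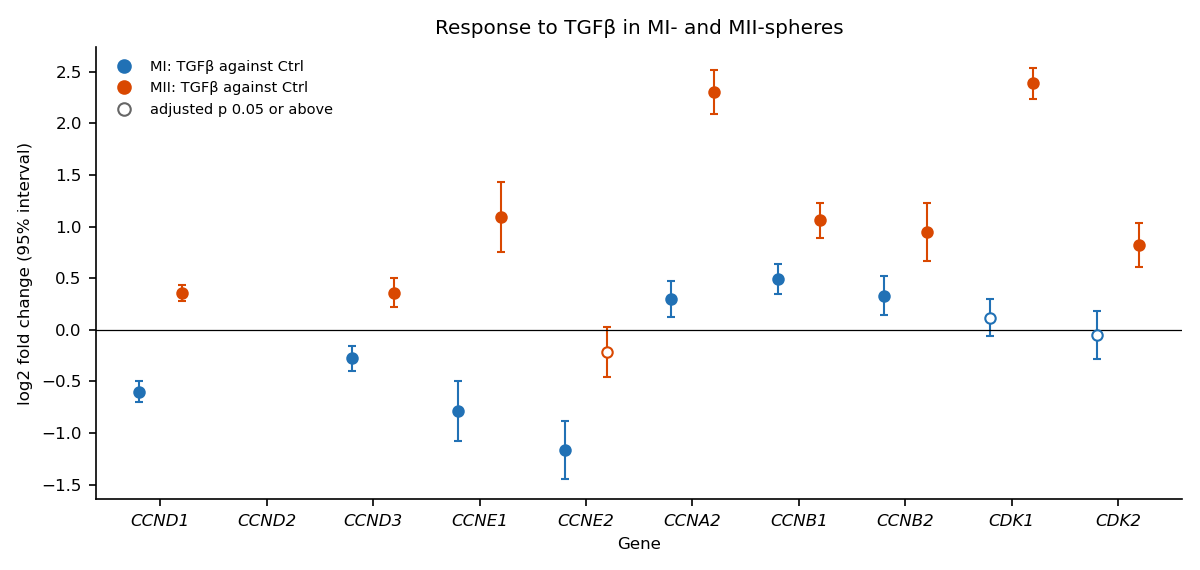
Log2 fold change after TGFβ in MI- and MII-spheres for the 9 members tested, with 95% intervals, from edgeR fits on 6 libraries each. The MII value is higher than the MI value for every gene, with 0.12 in MI against 2.39 in MII for CDK1 and -1.16 against -0.21 for CCNE2.

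Whether the response differed between the lines was tested by the product of line and TGFβ in a fit of the 12 sphere libraries. All 9 members had a higher response in MII- than in MI-spheres, against 12.7% of 18591 genes with a higher and 9.85% with a lower response; the medians were 0.96 over the members and -0.00 over all genes. The difference of log2 fold changes was largest for CDK1 (2.28, SE 0.12, adjusted p = 4.29e-20), CCNA2 (2.01, SE 0.13) and CCNE1 (1.89, SE 0.22). For CCND1, CCND3 and CCNE1 it joined a fall in MI- to a rise in MII-spheres. It was smallest for CCNB1 (0.58, SE 0.11, adjusted p = 6.55e-05) and CCNB2 (0.62, SE 0.17, adjusted p = 0.00542), which rose in both lines. Without MII Ctrl replicate 3, which had the lowest CCNB2 level of all libraries, the difference for CCNB2 was 0.44 and missed the test (adjusted p = 0.0518).

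The untreated spheres of the lines differed in all members tested. Against MI Ctrl, 9 of 9 members were lower in MII Ctrl and 0 were higher, where 32.6% of 17862 genes were lower and 31.8% higher; the medians were -1.52 and 0.02. CCNA2 was 5.35-fold, CDK1 4.21-fold, CCNB1 4.07-fold and CCNB2 3.65-fold lower. CCND3 (-1.35, SE 0.06) and CCNE1 (-1.52, SE 0.15) were also more than 2-fold lower, CCND1 was lower by less (-0.73, SE 0.04), and CDK2 by -0.38 (adjusted p = 0.000924). CCNE2 was near the threshold (-0.22, adjusted p = 0.0462, edgeR) and missed it in 9 of the other settings tried. This comparison shares its MI Ctrl and MII Ctrl libraries with the TGFβ comparisons. TP63 and PECAM1, at the levels given above, moved with the line as well, and their part in the members' levels was not tested.

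After TGFβ the lines stood closer for some members and not for others. Of 9 tested, 5 were higher and 4 lower in MII TGFb than in MI TGFb, where 31.2% of 15878 genes were higher and 31.6% lower, and the medians were 0.21 and 0.00. CCNB1 stayed lower in MII TGFb, at 30.9, 26.8 and 31.3 CPM against 84.7, 74.7 and 95.2 CPM (-1.44, SE 0.08, adjusted p = 7.42e-16, edgeR), and so did CCNB2 (-1.24, SE 0.10), CCND3 (-0.70, SE 0.07) and CCNA2 (-0.40, SE 0.08). CCNE2 (0.74, SE 0.16), CDK2 (0.50, SE 0.12) and CCND1 (0.24, SE 0.05) were higher. CCNE1 (0.38, adjusted p = 0.0344) and CDK1 (0.21, adjusted p = 0.0255) passed narrowly, and the CDK1 libraries of the groups overlapped. Leaving out MI TGFb replicate 1 or 3 or MII TGFb replicate 2 or 3 ended the call for CCNE1 (adjusted p = 0.0678 to 0.142), and leaving out MI TGFb replicate 1 or 2 or MII TGFb replicate 1 or 2 did so for CDK1 (adjusted p = 0.0579 to 0.299).

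The balance within the pairs is given per kilobase of annotated exons, so the size of each ratio depends on that length. CDK1 over CDK2 stood at 1.13 ± 0.0614 in MII Ctrl, against 3.71 ± 0.493 in MI Ctrl, 4.13 ± 0.199 in MI TGFb and 3.40 ± 0.330 in MII TGFb. MII Ctrl was thus the group with the lowest ratio of the kinases. CCNE1 over CCNE2 was 0.522 ± 0.0479 in MII Ctrl and 1.33 ± 0.228 in MII TGFb, with no overlap, and 1.31 ± 0.230 and 1.77 ± 0.622 in MI Ctrl and MI TGFb, with overlap. The share of CCND3 in the D-type total went from 17.3% ± 0.851 to 20.7% ± 0.330 in MI-spheres and stayed between 11.5% and 12.8% in all 6 MII libraries. Where groups did not overlap, the exact two-sided permutation test gave p = 0.1, the smallest value that 3 against 3 libraries allow. CCNE1 over CCNE2 rests on CCNE2, of which 37.1% of the exonic bases are shared with genes on the opposite strand, and the counting did not use strand.

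**Figure D3:**
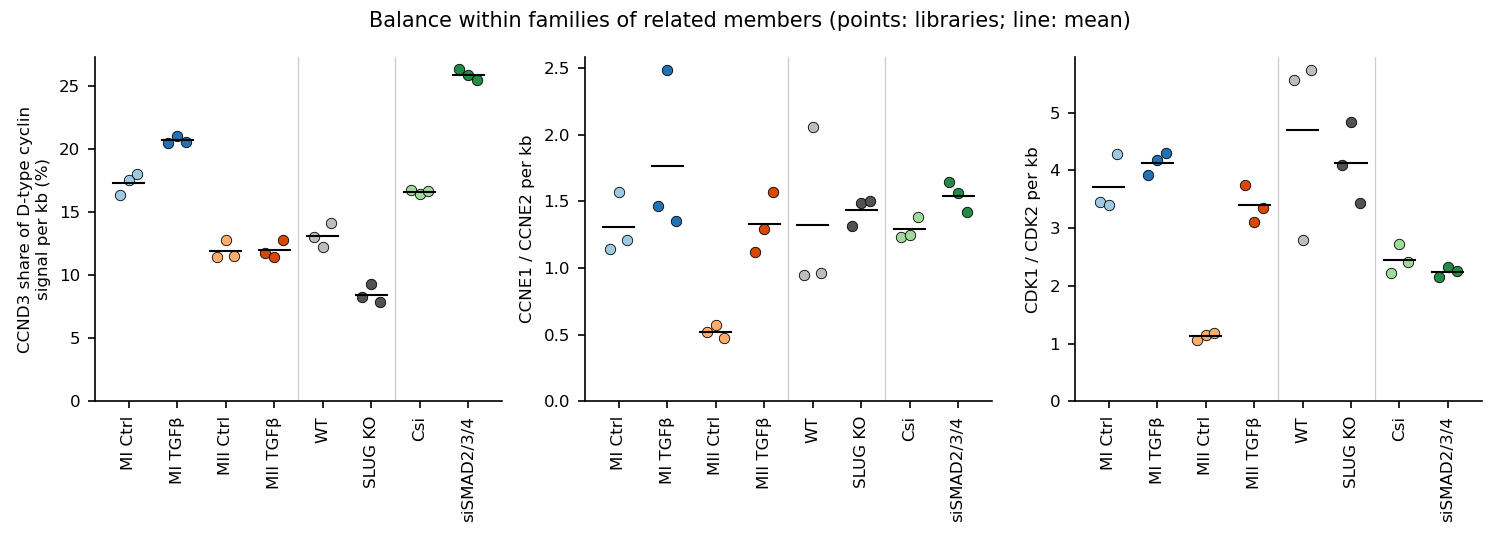
Per-kilobase balance within member pairs in the 24 libraries; points are libraries, bars the means of 3. MII Ctrl has the lowest CDK1 over CDK2 (1.13) and CCNE1 over CCNE2 (0.522), and siSMAD2/3/4 the highest CCND3 share of the D-type total (25.9%).

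In MDA-MB-231, knockdown of SMAD2, SMAD3 and SMAD4 was followed by lower levels of nearly all members and a higher level of CCND3. Of 10 tested, 8 fell and 1 rose, against 19.8% of 17696 genes that fell and 16.3% that rose, and the medians were -0.54 and 0.00. CCND3 went from 195, 195 and 201 CPM in Csi to 270.0, 269 and 256 CPM (log2 fold change 0.42, SE 0.04, adjusted p = 6.98e-12, edgeR). CCND1 went the other way, from 802, 818 and 827 CPM to 621, 636 and 617 CPM (-0.39, SE 0.04, adjusted p = 7.52e-12). Neither pair of groups overlapped, and the CCND3 share of the D-type total went from 16.6% ± 0.152 to 25.9% ± 0.441 (exact permutation p = 0.1, the smallest possible).

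The S phase and mitotic members fell together after the SMAD siRNAs. CCNA2 stood at 171, 190.3 and 178 CPM in Csi and at 105.6, 103.7 and 106.4 CPM in siSMAD2/3/4 (-0.78, SE 0.04, adjusted p = 2.49e-18). CDK1 averaged 139.8 ± 10.1 CPM in Csi and stood after the SMAD siRNAs at 82.3, 83.1 and 83.6 CPM (-0.76, SE 0.05, adjusted p = 5.06e-17). CDK2 fell from 57.8, 54.5 and 57.1 CPM to 37.8, 35.2 and 36.6 CPM (-0.63, SE 0.05), and none of these groups overlapped. CCNE2 fell by 0.70, CCNB2 by 0.59, CCNB1 by 0.49 and CCNE1 by 0.43 on the log2 scale. CCND2 did not pass the test (-0.06, 95% interval -0.60 to 0.47, adjusted p = 0.881) at 18 to 84 counts a library in MDA-MB-231. The labels give all 6 libraries the same sequencing batch, whereas the column headers name another flow cell for siSMAD2/3/4 replicates 1 and 2. With flow cell as a term in the fit, the difference rests on siSMAD2/3/4 replicate 3 alone against the Csi libraries. In that fit CCNA2 was at -0.75, CDK1 at -0.74 and CCND3 at 0.39. It cannot separate flow cell from knockdown in replicates 1 and 2.

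**Figure D4:**
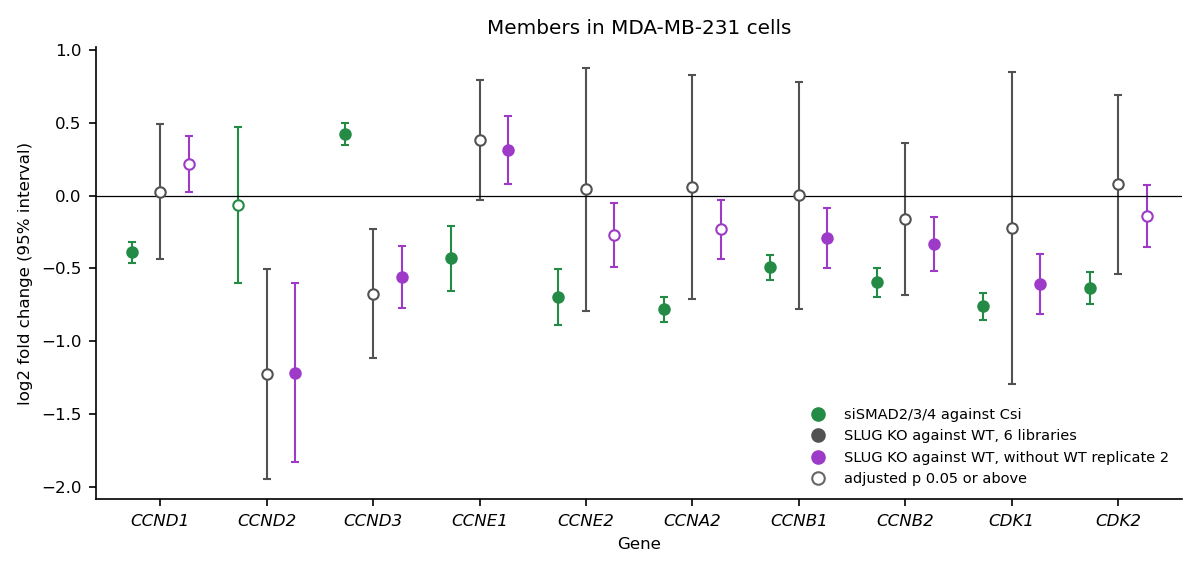
Log2 fold change with 95% interval for the 10 members in MDA-MB-231, for siSMAD2/3/4 against Csi and for the libraries labelled SLUG KO against WT with and without WT replicate 2. CCND3 is the lone gene above 0 that passes the test after the SMAD siRNAs (0.42), and the SLUG KO intervals with all WT libraries are the widest.

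Between the libraries labelled SLUG KO and WT, 0 of 10 members passed the test in either direction (edgeR), and DESeq2 also called 0. Of 17428 genes, 1.34% were higher and 1.80% lower in edgeR. CCND2 and CCND3 had an unadjusted edgeR p under 0.05 (0.00488 and 0.00827), and the share of all genes under it was not counted. The medians were 0.01 over the members and -0.05 over all genes. WT replicate 2 lay apart from the other WT libraries for most members. CDK1 was at 262, 80.0 and 323 CPM in WT and at 195, 209 and 176 CPM in the libraries labelled SLUG KO. CCNA2 was at 219.8, 109.4 and 285 CPM in WT, so that the lowest and the highest library of the comparison were both WT. The 95% interval for CDK1 ran from -1.29 to 0.85, and that for CCNA2 from -0.71 to 0.82.

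CCND2, CCND3 and CCNE1 had groups that did not overlap in this comparison, and none of them passed the test. The share of all genes without overlap was not counted. CCND2 was at 3.16, 2.74 and 2.46 CPM in WT and at 1.59, 0.822 and 1.22 CPM in the libraries labelled SLUG KO (-1.22, adjusted p = 0.0945). CCND3 was at 111.4, 151 and 136 CPM against 84.7, 93.2 and 75.7 CPM (-0.67, adjusted p = 0.125), and CCNE1 at 16.1, 14.6 and 18.8 CPM against 21.5, 22.2 and 21.8 CPM (0.38, adjusted p = 0.298). CCND3 made up 13.2% ± 0.978 of the D-type total in WT and 8.47% ± 0.742 in the libraries labelled SLUG KO. Without WT replicate 2, 5 members were lower (CDK1 -0.61, CCND3 -0.56, CCND2 -1.21, CCNB2 -0.33, CCNB1 -0.29) and CCNE1 was higher (0.31, adjusted p = 0.0374), where 14.3% of 17909 genes were lower and 17.0% higher. Each of these directions is between the labelled groups, whose SNAI2 transcript level ran against the label; the study's methods state that the knockout clones were checked by ddPCR and immunoblotting.

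The genes that act on the members were counted by list, to be read against the share of all genes called: 30.0% up and 27.7% down after TGFβ in MII-spheres, 28.7% and 27.4% in MI-spheres, 31.8% and 32.6% in MII Ctrl against MI Ctrl, and 16.3% and 19.8% after the SMAD siRNAs. Of 14 transcription regulators of the cell cycle, TGFβ stimulation of MII-spheres left 12 higher and 2 lower, and that of MI-spheres 5 and 5, the latter near the share of all genes. MYBL2, the MuvB partner of G2 genes, rose by 2.74 (SE 0.15), and the E2F members E2F7, E2F2 and E2F1 rose by 2.38, 2.20 and 1.62 on the log2 scale. In MII Ctrl against MI Ctrl, 13 of the 14 were lower and 0 higher, E2F2 by -4.45 (SE 0.12). After the SMAD siRNAs 11 fell and 0 rose, E2F8 by -1.04 (SE 0.07).

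Of 10 partner kinases and activators, 6 rose and 1 fell in MII-spheres and 7 rose and 1 fell in MI-spheres after TGFβ, where 30.0% and 28.7% of all genes rose. CDC25A, a phosphatase that activates CDK2, rose by 1.71 (SE 0.14) in MII-spheres, and its response differed between the lines by 1.82 (SE 0.17). After the SMAD siRNAs 7 fell and 0 rose. Of 7 CDK inhibitors with enough counts among 9 listed, 3 rose and 1 fell in MII-spheres and 1 rose and 3 fell in MI-spheres, where 27.7% and 27.4% of all genes fell. CDKN1C, which encodes p57, fell by 1.88 on the log2 scale in MII-spheres, and it was 1.04 higher after the SMAD siRNAs and 1.55 higher in the libraries labelled SLUG KO (adjusted p = 0.00803, edgeR). PKMYT1, a kinase that holds CDK1 inactive, rose by 1.49 (SE 0.19) in MII-spheres and fell by 1.07 after the SMAD siRNAs.

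Of 9 genes of cyclin turnover, 7 rose and 1 fell in MII-spheres after TGFβ, among them FBXO5 (2.19, SE 0.14), an inhibitor of the anaphase-promoting complex, and UBE2C (2.00, SE 0.14), its ubiquitin-conjugating enzyme; in MI-spheres 3 rose and 1 fell. Of all genes, 30.0% rose in MII- and 28.7% in MI-spheres. All 8 proliferation markers rose in MII-spheres (median 1.76) and 3 rose in MI-spheres (median 0.04), all 8 were lower in MII Ctrl than in MI Ctrl (median -1.85), and all 8 fell after the SMAD siRNAs (median -0.78). The 26 other cyclins and CDKs were split, with 8 up and 11 down in MII-spheres and 8 up and 8 down in MI-spheres, near the shares of all genes for the rises; CCNA1 rose by 2.49 (SE 0.23) in MI-spheres. Between the libraries labelled SLUG KO and WT, 0 of the 8 proliferation markers and 0 of the 14 transcription regulators passed. Of all genes, 1.80% were lower and 1.34% higher. Without WT replicate 2, 6 markers and 8 regulators were lower, and 0 and 2 higher, where 14.3% of all genes were lower and 17.0% higher.

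Likeness of pattern was measured by Pearson's r of log2 CPM over the 18 libraries of the larger sequencing batch, among 12768 genes, as a description: the libraries share lines, culture forms and groups. CCNA2 was most like ARHGAP11A (0.994), PBK (0.993) and BUB1B (0.991), and CDK1 most like PBK (0.992), MAD2L1 (0.987) and BLM (0.986). CCNB1 was most like AURKA (0.996), RBMS3 (0.995) and CLIC1 (0.992), and CCNB2 most like AURKA (0.988), PTPRG (0.987) and PTTG1 (0.986). CCNE1 was nearest to E2F1 (0.975) and CDK2 to SMC2 (0.990). The nearest genes to CCND1, CCND2, CCND3 and CCNE2 were VSTM2L (0.989), IGFBPL1 (0.986), FAM120C (0.964) and CT83 (0.982). Among the members themselves r ran from 0.552 for CCND3 with CCNE2 to 0.989 for CCNB1 with CCNB2.

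Some members share exonic bases with other genes. Where the other gene lies on the opposite strand, reads there could not be told apart without strand. The 999 shared bases of CCND2 lie in a gene on the same strand, where strand would not separate them. The share was 37.1% for CCNE2, 16.8% for CDK2, 12.5% for CCND2, 10.4% for CCND1, 9.24% for CCNA2 (with EXOSC9) and 0.417% for CCND3, and 0 for CCNB1, CCNB2, CCNE1 and CDK1. CDK1, with none, had the largest change after TGFβ in MII-spheres, and CCNE2, with the most, had the largest in MI-spheres.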

How the data were processed

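The deposited files hold raw gene counts, which per the labels and the study's methods the authors made by trimming with Trimmomatic, alignment with STAR to the human genome and counting with featureCounts (Subread 2.0.0, GENCODE 38, mapping quality of at least 30) without strand. The 60708 gene identifiers were named from GENCODE v44 (60463 matched). Groups came from the sample labels, and all 24 RNA-seq libraries were used. The 16 ATAC-seq samples of the series were not used here. The members and gene lists were chosen with earlier results of these data known. The members, the targeted genes and, per list, at most 4 genes with the smallest adjusted p among those changed more than 2-fold are named.

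The 6 libraries of a comparison (12 for the product of line and TGFβ) entered a fit of their own in edgeR 4.0.16 under R 4.3.3: filterByExpr, TMM, robust glmQLFit and glmQLFTest. P-values were adjusted by the Benjamini-Hochberg method across every gene in that fit and called under 0.05. Fold changes therefore rest on another scaling than the CPM levels, which used TMM over 24 libraries. Ratios were compared by an exact two-sided permutation test. Alternatives were DESeq2 1.42.0, edgeR with DESeq2 size factors, keeping genes of any count, keeping those that reached 10 counts everywhere, a gene-length trend, a replicate block, 1 fit of the 12 sphere libraries, limma-voom (limma 3.58.1) with sample weights, flow cell as a term, and leaving out each library. Scripts were tested on simulated data with genes changed 1.5-fold or 3-fold. The fit of SLUG KO against WT recovered 0% and 49% of these. The other fits recovered 68% to 81% and 96% to 100%. A count of 0 members for SLUG KO against WT therefore does not show that the members were unchanged. Library totals of 14124688 to 38406952 set the precision, and floors of 3 counts cover counting error only.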

Additional observations from a re-analysis of the deposited data

Results flagged for a closer look

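All 9 members that could be tested stand out because their response to TGFβ differed between MII- and MI-spheres, by a direct test of the difference (the product of line and TGFβ in edgeR over 12 sphere libraries). The difference of log2 fold changes, MII minus MI, was 2.28 for CDK1, 2.01 for CCNA2, 1.89 for CCNE1, 0.96 for CCND1, 0.96 for CCNE2, 0.88 for CDK2, 0.65 for CCND3, 0.62 for CCNB2 and 0.58 for CCNB1. CCND2 was not tested, since 10 of the 12 sphere libraries had no count for it. The untreated MII-spheres had lower levels of all 9 than the untreated MI-spheres, and the difference of the responses contains those same untreated libraries; the part of that starting level in the difference was not tested.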

How the results depend on the processing

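Counts of members past the threshold ranged over the alternatives from 7 to 8 for TGFβ in MI-spheres, 8 in all for MII-spheres, 8 to 9 for MII Ctrl against MI Ctrl, 7 to 9 for MII TGFb against MI TGFb, 8 to 9 for the difference of responses and 9 in all after the SMAD siRNAs. The last leaves out the fit with the flow cell term, which rests on 1 knockdown library. For the libraries labelled SLUG KO against WT the count was 0, but 4 with limma-voom and sample weights, and 0 to 6 when single libraries were left out. The limma-voom fit called 5289 of 17428 genes. The fit without WT replicate 2, which gave the 6, called 5621 of 17909 genes. With the replicate block the counts were 7, 8, 8, 9, 9, 0 and 9 for MI TGFβ, MII TGFβ, MII against MI Ctrl, MII against MI TGFb, the difference of responses, SLUG KO and siSMAD2/3/4. The deviations of same-numbered libraries correlated at -0.12 to 0.03. The study names no pairing of these libraries, and these values do not settle whether there was one. Of the member values under alternatives, 837 kept direction and side of the threshold, 22 lost the call, 10 gained it and 21 changed sign, 1 of them called. Sign changes among the libraries labelled SLUG KO against WT were CCNB1 at -0.016 and CCND1 at -0.0010 with at least 10 counts in every library, CCNB1 at -0.033 and CCND1 at -0.0031 with the length trend, and CCNA2 at -0.19, CCNB1 at -0.27, CCNE2 at -0.25 and CDK2 at -0.10 with limma-voom. With single libraries left out, values in that comparison ran from -0.23 to 0.37 for CCNA2, -0.29 to 0.29 for CCNB1, -0.33 to 0.0088 for CCNB2, -0.056 to 0.21 for CCND1, -0.27 to 0.31 for CCNE2, -0.61 to 0.14 for CDK1 and -0.14 to 0.29 for CDK2. For CCNA2, CCNB1, CCNB2, CCNE2, CDK1 and CDK2 the lowest value came without WT replicate 2 and the highest without WT replicate 3, and CCNB1, CCNB2 and CDK1 were called at the lowest. After the SMAD siRNAs CCND2 was 0.26 with the flow cell term and ran from -0.24 to 0.17 with single libraries left out, and after TGFβ in MI-spheres CDK2 ran from -0.12 to 0.074. The causes of these changes were not tested. DESeq2 ended the calls of CCNE2 in MII Ctrl against MI Ctrl (adjusted p = 0.133) and of CCNE1 and CDK1 in MII TGFb against MI TGFb (adjusted p = 0.217 and 0.193). Over all genes, calls for SLUG KO against WT moved from 548 to 1213 with DESeq2, 240 with at least 10 counts (55.4% of them higher, against 42.7%), 239 with the block, 5289 with limma-voom and 5621 without WT replicate 2, and to between 123 and 325 when another single library was left out. No scaling moved the median of all genes by over 0.1 on the log2 scale. CCND2 was limited by depth in the spheres.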
